A study of Rattus norvegicus with 6 samples.

Results

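The microRNAs miR-204, miR-211 and miR-708 were examined together with the genes that host them, Trpm3, Trpm1 and Tenm4, in small RNA libraries of rat INS-1 insulinoma lines that lack the Prader-Willi syndrome (PWS) imprinted domain. These 6 genes were chosen by symbol, because each microRNA has been tied to endoplasmic reticulum (ER) stress or to insulin production and each lies inside its host gene, and they were found as 6 of the 32883 genes listed. INS-1(832/13)::mCherry cells are a rat insulin-secreting line that carries a human insulin transgene and an insulin 2 C-peptide reporter fused to mCherry. The 3 control lines (5-9, 2 and 16) carried a deletion of the PWS domain on the silent, maternal allele, and the 3 PWS lines (3, 19-1 and 19-4) carried that deletion plus one of the active, paternal allele. All 6 lines were kept in RPMI medium with 7.5 mM glucose, with no ER stressor, and each gave 1 library.

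Each line was a clone, and the lines were related. Lines 2, 16 and 3 and the parent of lines 19-1 and 19-4 were all isolated from line 5-9, lines 19-1 and 19-4 were subclones of 1 edited line, and line 3 had a larger deletion at an alternate breakpoint. Differences between lines therefore combine genotype with clonal history. The p-values rest on the spread between these clones, with the related subclones 19-1 and 19-4 counted as 2 lines. The gene counts of a library summed to between 7373691 and 16480475 reads, where a read assigned to several genes counted for each. RNAs named SNORD116, multicopy genes within the deleted domain whose shared reads count for each copy, summed to between 5557 and 8804 normalized reads in control lines and to between 1.78 and 3.96 in the PWS group, so every library matched its label. Line 19-4 stood apart: over 174 microRNA genes its median absolute log2 difference from the median of the other lines was 0.487, against 0.136 to 0.281 for the other 5 lines. Of 12 β-cell markers, all 12 passed the read filter, led by Mir375 and Mir7a1, and Gcg, Sst and Ppy, which mark other islet cells, had 0 reads.

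MicroRNAs are cut from hairpin precursors and pair with target mRNAs mainly through the seed, bases 2 to 8 of the mature strand, so microRNAs with the same seed share many predicted targets. In β-cells, the thioredoxin-interacting protein Txnip is known to raise miR-204, which lowers the insulin gene activator Mafa. The unfolded protein response (UPR) is the signalling that ER stress starts: its sensor PERK (Eif2ak3) is known to raise miR-211, which represses Ddit3 (CHOP), and Ddit3 in turn is known to raise miR-708 together with its host Tenm4. Trpm3 and Trpm1 encode cation channels and Tenm4 encodes a teneurin membrane protein.

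The mature sequences are shown because the seeds set which of these genes can be summed as 1 regulator. Both arms of the 3 microRNAs, and the 5p arm of the seed relative miR-28, were taken from RefSeq on build GRCr8, 5′ to 3′, with the seed in capitals:
rno-miR-204-5p: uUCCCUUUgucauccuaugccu
rno-miR-211-5p: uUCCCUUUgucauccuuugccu
rno-miR-708-5p: aAGGAGCUuacaaucuagcuggg
rno-miR-28-5p: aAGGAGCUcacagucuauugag
rno-miR-204-3p: gCUGGGAAggcaaagggacguu
rno-miR-211-3p: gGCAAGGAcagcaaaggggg
rno-miR-708-3p: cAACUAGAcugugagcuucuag

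In GRCr8, miR-204-5p lies at chr1:229743493-229743514, miR-211-5p at chr1:127189353-127189374 and miR-708-5p at chr1:160011168-160011190, all on the plus strand, and miR-28-5p lies at chr11:89480303-89480324 on the minus strand. Each of the 3 microRNAs lies within, and on the same strand as, its host gene, Trpm3, Trpm1 and Tenm4, respectively. Mir211 is the nearest to the PWS domain, with 5 protein-coding genes between it and Peg12 at the end of the domain. The 5p arms of miR-204 and miR-211 had the same base at 21 of 22 positions, with the single substitution A17U counted from the 5′ end of miR-204-5p. Over their whole compared length, seed included, miR-708-5p and miR-28-5p had the same base at 16 of 22 positions, with the substitutions, all outside the seed, U9C, A13G, G18U, C19U, U20G and G21A, counted from the 5′ end of miR-708-5p. Among 724 mature rat microRNAs, no gene other than Mir204 and Mir211 had the first of these 5p seeds, and none other than Mir708 and Mir28 had the second. Reads were deposited per gene, so the 5p and 3p arms could not be told apart.

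In the INS-1 lines the 3 microRNAs were present at very different levels, and their host genes left almost no reads. Before any division by length, Mir204 averaged 13471 normalized reads, Mir708 averaged 792.2 and Mir211 averaged 8.91, and Mir204 was 8.76 to 33.3 times Mir708. Per 100 nt of hairpin, Mir204 averaged 12247 normalized reads, Mir708 averaged 900.2 and Mir211 averaged 8.41. This order was the same in all 6 lines: per length, Mir204 was 7.01 to 26.6 times Mir708, and Mir708 was 48.0 to 266 times Mir211. Among the 350 microRNA genes with reads, Mir204 ranked 49 to 59 in the 6 lines, Mir708 ranked 111 to 134 and Mir211 ranked 231 to 253. Of the 6 genes, 5 had at least 1 read and 3, the microRNA genes, passed the filter at a mean of 5 normalized reads.

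None of the 3 microRNA genes tested passed an adjusted p of 0.1 between PWS and control lines (limma, Benjamini-Hochberg adjustment over 4292 genes), where 1.28% of all genes tested did. All 55 genes called were lower in PWS lines. In the study's own comparison nearly all small RNAs called belonged to the deleted domain, so this share is not a rate of change outside it. The fold changes of the 3 microRNA genes were below 0 on the log2 scale. None of the 3 had groups that did not overlap, against 11.2% of all genes tested, and none had an unadjusted p below 0.05 in limma, against 5.96%. By unadjusted p, edgeR and limma-voom on the recovered reads each placed 1 of the 3 below 0.05, Mir708, and DESeq2 placed 0. With the read filter lowered to a mean of 1 or removed, limma also gave Mir708 an unadjusted p below 0.05, 0.0190 and 0.00422, with an adjusted p of 0.797 and 0.668.

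**Figure D1:**
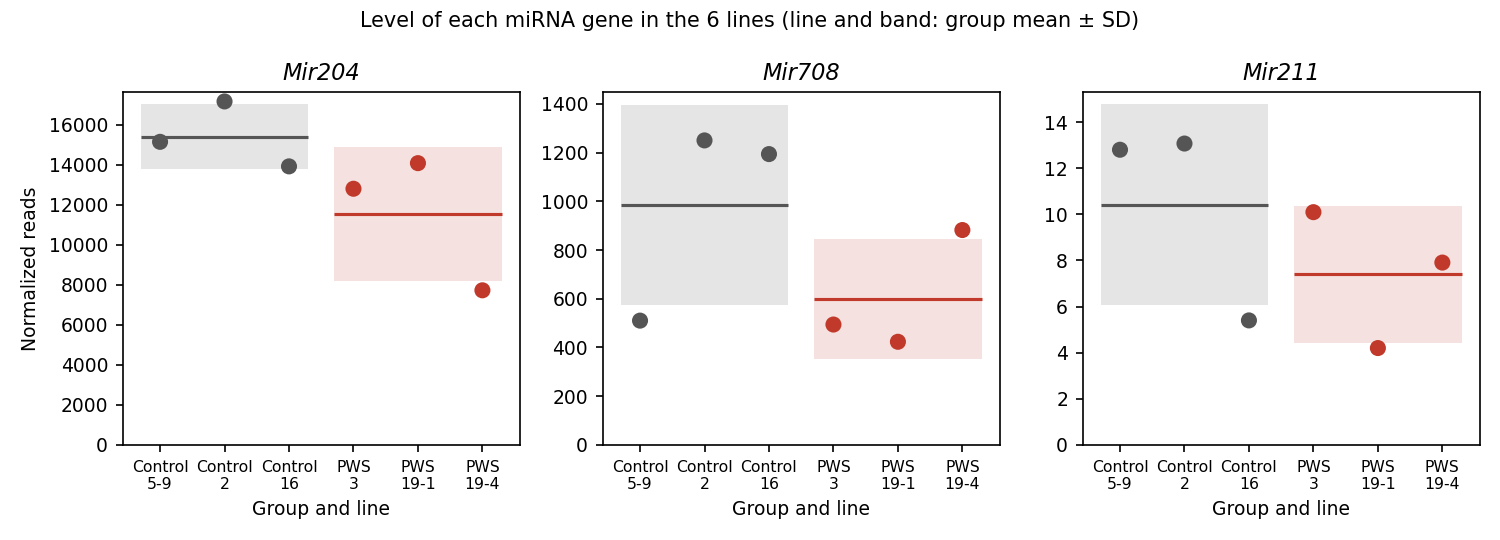
Normalized reads (vertical axes, each from 0) of Mir204, Mir708 and Mir211 in the 6 lines, with the mean (line) and SD (band) of the 3 control (grey) and 3 PWS (red) lines. The groups overlap for each gene: for Mir708 the PWS line 19-4, at 882.0, lies above the control line 5-9, at 510.2.

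Mir204 (ENSRNOG00000035472), the most abundant of the 3, was measured at 15144, 17162 and 13918 normalized reads in control lines 5-9, 2 and 16, and at 12800, 14079 and 7725 in PWS lines 3, 19-1 and 19-4. The other lines lay between 12800 and 17162, and line 19-4 lay below them all, at 0.549 times its sister subclone 19-1. The groups overlapped, since line 19-1 exceeded control line 16. The group means were 15408 ± 1638 and 11535 ± 3360 (SD, n = 3 each). The log2 fold change was -0.46 ± 0.24 (SE; 95% interval -0.98 to 0.06), or 0.727-fold, and it was not called (limma adjusted p = 0.848). Without line 19-4 the log2 fold change was -0.19. Without line 19-1 it was -0.63, with an unadjusted limma p of 0.0305 and an adjusted p of 0.903. With 5860 to 21552 reads per library, the counting error was at most 1.31% of a value, against a spread between lines of 10.6% of the mean in control and 29.1% in PWS lines. As a share of all microRNA reads, Mir204 made up 0.162% ± 0.0274 in control and 0.127% ± 0.0325 in PWS lines (SD, n = 3 each). A lower level in a bulk library cannot tell fewer expressing cells from less RNA per cell.

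Mir708 (ENSRNOG00000040447), the microRNA known to follow Ddit3, was measured at 510.2, 1250 and 1194 normalized reads in control lines 5-9, 2 and 16, and at 494.1, 423.4 and 882.0 in PWS lines 3, 19-1 and 19-4. Lines 2, 16 and 19-4 were high, and lines 5-9, 3 and 19-1 were low, so that high and low lines occurred in both groups. Control lines 2 and 16 had 2.45 and 2.34 times the level of line 5-9, the line from which they were isolated, and line 19-4 had 2.08 times that of its sister 19-1. The counting error was 2.54% to 4.98% of each value, and with 1 library per line the variation between libraries or cultures of a line was not measured. The group means were 985 ± 412 and 600 ± 247 (SD, n = 3 each).

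The log2 fold change of Mir708, PWS against control, was -0.68 ± 0.35 (SE; 95% interval -1.43 to 0.07), or 0.624-fold, and it was not called (limma adjusted p = 0.837). This value depended on single lines: the log2 fold change was -1.10 without line 5-9 and -0.996 without line 19-4, with unadjusted limma p of 0.00654 and 0.0106, and -0.45 without line 2. None of these was called, with adjusted p of 0.519, 0.629 and 0.853. The unadjusted p was 0.0459 by edgeR, 0.0491 by limma-voom and 0.0617 by DESeq2, with an adjusted p of at least 0.895 in each.

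Mir211 (ENSRNOG00000035648), encoded in Trpm1, was near the lower limit of these libraries, at 12.8, 13.1 and 5.40 normalized reads in control lines 5-9, 2 and 16 and at 10.1, 4.20 and 7.91 in PWS lines 3, 19-1 and 19-4. These values stand for 13, 10 and 7 reads in the control lines and 17, 4 and 6 reads in the PWS lines. The groups overlapped, and the counting error alone was 24.3% to 50.0% of a value, close to the spread between lines of 41.8% and 40.3% of the mean. The group means were 10.4 ± 4.35 and 7.40 ± 2.98 (SD, n = 3 each), the log2 fold change was -0.42 ± 0.46 (SE; 95% interval -1.40 to 0.55), and it was not called (limma adjusted p = 0.898). On the pooled reads, 30 and 27, the PWS to control ratio was 0.816 with a counting interval of 0.467 to 1.42, so that a change smaller than this range was not detectable at this depth.

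Because Mir204 and Mir211 share a seed, their reads were also summed. The sum followed Mir204, with a log2 fold change of -0.46 ± 0.24 (SE) that was not called (limma adjusted p = 0.847). Mir211 supplied 0.0845%, 0.0761% and 0.0388% of the pair in control lines 5-9, 2 and 16 and 0.0788%, 0.0298% and 0.102% in PWS lines 3, 19-1 and 19-4. The lowest and the highest share both came from PWS subclones of 1 edited line. The group means, 0.0665% ± 0.0243 and 0.0703% ± 0.0370 (SD, n = 3 each), did not differ beyond this spread (exact two-sided permutation test, p = 0.9, where 3 against 3 can give no p below 0.1). The 5p arms differ at 1 base, and whether reads of miR-204 misread at that base entered the Mir211 counts was not tested, since the values are per gene.

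The seed of miR-708 was shared with Mir28 (ENSRNOG00000035536), a microRNA encoded on chromosome 11, and the 2 genes were of like abundance. Mir28 was measured at 1014, 878.5 and 985.3 normalized reads in control lines 5-9, 2 and 16 and at 1191, 939.2 and 1372 in PWS lines 3, 19-1 and 19-4. It varied less between lines than Mir708, 1.56 times from lowest to highest against 2.95 times. Mir28 had a log2 fold change of 0.27 ± 0.24 (SE) and was not called (limma adjusted p = 0.889). This value was 0.14 without line 19-4 and 0.42 without line 19-1. Of the reads with this seed, Mir708 made up 49.0% ± 13.6 across the control lines and 33.2% ± 5.23 across the PWS lines (SD, n = 3 each), given as a description with no test. The Mir708 to Mir28 ratio was 0.503, 1.42 and 1.21 in lines 5-9, 2 and 16 and 0.415, 0.451 and 0.643 in lines 3, 19-1 and 19-4, so the ratio of control line 5-9 lay within the PWS range. The summed seed amounted to 1944 ± 364 normalized reads in control and 1767 ± 452 in PWS lines (SD, n = 3 each).

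**Figure D2:**
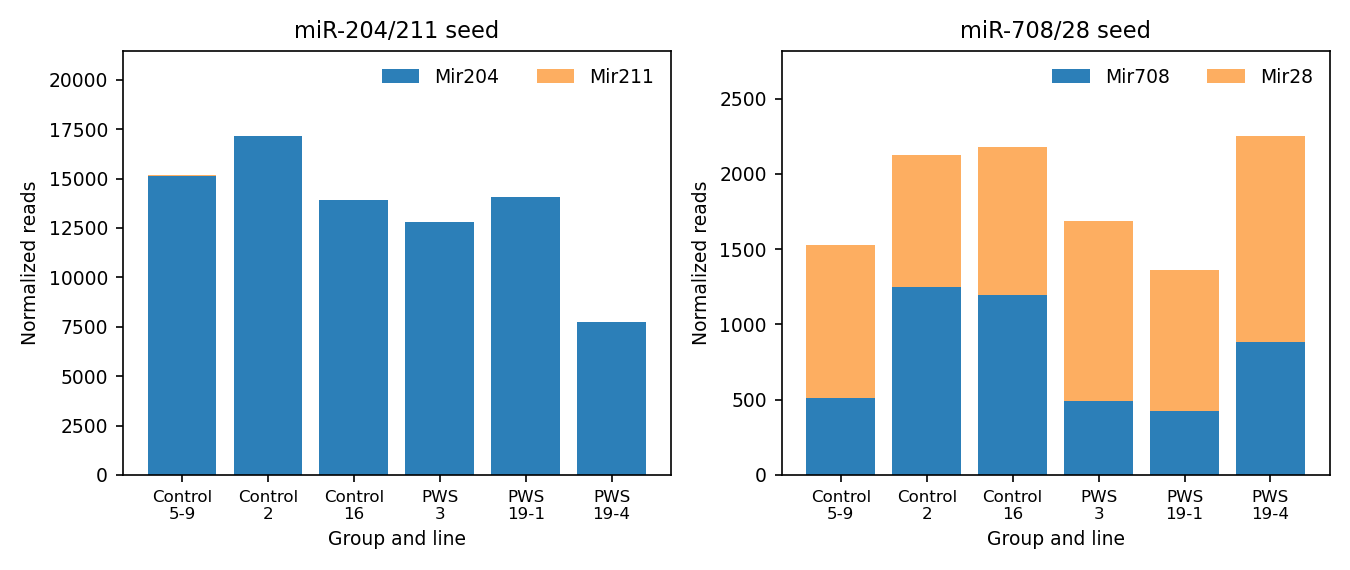
Normalized reads (vertical axes, from 0) of the 2 genes of each seed, stacked, in the 6 lines. Mir211 is at most 0.102% of its pair and cannot be seen at this scale, while Mir708 supplies between 29.3% and 58.7% of the miR-708/28 seed.

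The host genes were close to absent from the small RNA libraries, whose reads of a protein-coding gene are fragments and not a measure of its mRNA. Trpm3 (ENSRNOG00000027770) had 2.95, 1.31 and 0 normalized reads in control lines 5-9, 2 and 16 and 0.594, 0 and 2.64 in PWS lines 3, 19-1 and 19-4, 7 reads in all. Tenm4 (ENSRNOG00000011151) had 0, 2.61 and 0.772 in the control lines and 1.19, 4.20 and 0 in the PWS lines, 9 reads in all. For both, the groups overlapped and every group held a line without a read. Trpm1 (ENSRNOG00000015829) had 0 reads in every line, which with a limit of 3 reads over each group allows up to 0.975 normalized reads in control and 0.884 in PWS lines. With the filter lowered to a mean of 1, the log2 fold changes were -0.22 for Trpm3 and 0.28 for Tenm4 (limma adjusted p = 0.986 and 0.983). At this depth a difference in the host genes was not detectable, and no level of a microRNA was set against that of its host.

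Trpm1 and Mir211 are known to be high in pigment cells, and markers of melanocytes and retinal pigment epithelium were read as a check on other cell types. Of 7 such markers, 6 were listed and 3 (Mitf, Tyr and Pmel) had any read, 19 reads in all, while Tyrp1, Mlana and Rpe65 were at 0. Their summed level ranged from 2.31 to 7.88 normalized reads in control lines and from 0 to 2.38 in PWS lines. Tyr, singled out after its values were seen and below the read filter, was lower in every PWS line than in every control line, on 14 reads.

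Other microRNAs tied to the UPR also gave no call. Of 19 such genes 15 were listed and 13 were tested: 0 were called in limma, 7 had a log2 fold change below 0 and 6 above it, with a median of -0.09 beside 0.0048 over all genes tested. The 3 most abundant belong to 1 cluster whose members are known to be repressed under PERK signalling. Mir25 averaged 270869 ± 23694 normalized reads in control and 283492 ± 37038 in PWS lines, Mir93 averaged 255372 ± 28584 and 283465 ± 40640, and Mir106b averaged 27895 ± 2806 and 28994 ± 2903 (SD, n = 3 each). Their log2 fold changes were 0.06, 0.15 and 0.06, all with limma adjusted p of at least 0.918. By unadjusted limma p, 3 of the 13 were below 0.05, against 5.96% of all genes tested, and they are named after their values were seen: Mir30c2 (log2 fold change -0.67), known to repress Xbp1, Mir346 (-0.60), known to be raised by Xbp1, and Mir181a2 (0.73), each with an adjusted p of 0.831. Of these, Mir346 was lower and Mir181a2 higher in every PWS line than in every control line, 2 of 13 where 11.2% of all genes tested did not overlap. Each of the 3 lost its unadjusted p below 0.05 when 1 of several lines was left out, and Mir30c2 moved furthest, to -0.35 without line 19-4 (limma adjusted p = 0.988).

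The Txnip and UPR genes upstream or downstream of the 3 microRNAs were read as fragments only. Txnip, upstream of miR-204, had 45.6 ± 22.3 normalized reads in control and 44.0 ± 4.16 in PWS lines (SD, n = 3 each), with a log2 fold change of 0.05 (limma adjusted p = 0.986). Nnat, a published target of miR-708 in islets, had a log2 fold change of 0.02, and Stat3 had one of -0.13. Of the 10 genes of this list 9 were listed, 3 were tested and 0 were called in limma, with 0 at an unadjusted p below 0.05. Mafa, the published target of miR-204, had 4 reads in all, so no relation to miR-204 could be read. Ddit3, upstream of miR-708, had 41.0 ± 19.3 and 45.9 ± 6.49 normalized reads (SD, n = 3 each), a log2 fold change of 0.25 (limma adjusted p = 0.932) that was 0.012 without line 2, 0.13 without line 16, 0.15 without line 19-1 and 0.60 without line 5-9.

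Of 17 UPR sensors and effectors, all 17 were listed, 10 were tested and 0 were called in limma, with 3 log2 fold changes below 0 and 7 above it and a median of 0.09. None of the 10 had an unadjusted limma p below 0.05. The genes that missed the filter had 1 to 30 reads each. Their means were higher in PWS lines for Xbp1, Eif2s1, Atf3 and Edem1, and lower for Atf6, Asns and Derl3. Atf3, singled out after its values were seen, was higher in every PWS line than in every control line, on 17 reads. The most abundant besides Ddit3 were Chac1, which degrades glutathione, at 55.3 ± 3.34 and 59.2 ± 16.5 normalized reads, and the transcription factor Atf4, at 42.1 ± 7.54 and 44.0 ± 5.27 (SD, n = 3 each). Eif2ak3, the sensor upstream of miR-211 and singled out after its value was seen, had a log2 fold change of -0.92 ± 0.49 (SE, limma adjusted p = 0.845), which was -0.59 without line 19-1. Without line 3 it was -1.47, with an unadjusted limma p of 0.00998 and an adjusted p of 0.466.

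Most fragments of ER chaperones past the read filter had log2 fold changes below 0, with none called. Apart from Calr, Canx and P4hb, this list follows genes that the study named from the same lines, so its direction is not independent evidence. Of 15 genes 12 were tested, 11 had a log2 fold change below 0 and 1 above it, the median was -0.39 beside 0.0048 over all genes tested, and the smallest limma adjusted p was 0.236. The 3 genes that missed the filter had higher means in PWS lines: Dnajc3 had 2.12 normalized reads in control and 2.22 in PWS lines, Sdf2l1 had 2.59 and 4.08, and Ppib had 2.04 and 5.26. Ppib, named after its values were seen, was higher in every PWS line than in every control line, on 24 reads. The most abundant was Hspa5, the chaperone BiP, at 107 ± 23.0 normalized reads in control and 74.6 ± 19.7 in PWS lines (SD, n = 3 each), with a log2 fold change of -0.53 (adjusted p = 0.860). Calr, a calcium-binding chaperone, had 38.6 ± 13.1 and 37.5 ± 12.4 normalized reads. Hsp90b1, which encodes GRP94, Hyou1 and Creld2 had unadjusted limma p below 0.05, 3 of 12 against 5.96% of all genes tested, with log2 fold changes of -0.84, -1.37 and -1.05, and of these Hyou1 and Creld2 were lower in every PWS line than in every control line, 2 of 12 where 11.2% of all genes tested did not overlap. The unadjusted p of Hsp90b1 and of Creld2 rose above 0.05 when 1 of several lines was left out, and Hsp90b1 moved to -0.46 without line 19-1 (limma adjusted p = 0.930). Without line 2 or line 19-4, respectively, the log2 fold change of Hspa5 was -0.37 or -0.35. Hyou1 and Creld2 were named after their values were seen, and rest on 96 and 42 reads. Fragments of β-cell markers were set beside them: of the 12 tested, 9 had a log2 fold change below 0 and 3 above it, with a median of -0.12 and 0 called in limma. Of these, 2 had an unadjusted p below 0.05 and 2 had groups that did not overlap, against 5.96% and 11.2% of all genes tested. Ins2 (log2 fold change -2.03, with 0 reads in line 19-4) and Chgb (1.27) were those below 0.05, with limma adjusted p of 0.727 and 0.831, and Chgb was higher and Slc2a2 lower in every PWS line than in every control line. Ins2 was -0.87 without line 19-4 (limma adjusted p = 0.988), and it was called without line 3 (adjusted p = 0.0547) and with no read filter (adjusted p = 0.0130). Chgb was 0.60 without line 2, and Slc2a2, at -0.38, was -0.13 without line 19-4. These 3 markers were named after their values were seen, and their part in the chaperone values was not tested.

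**Figure D3:**
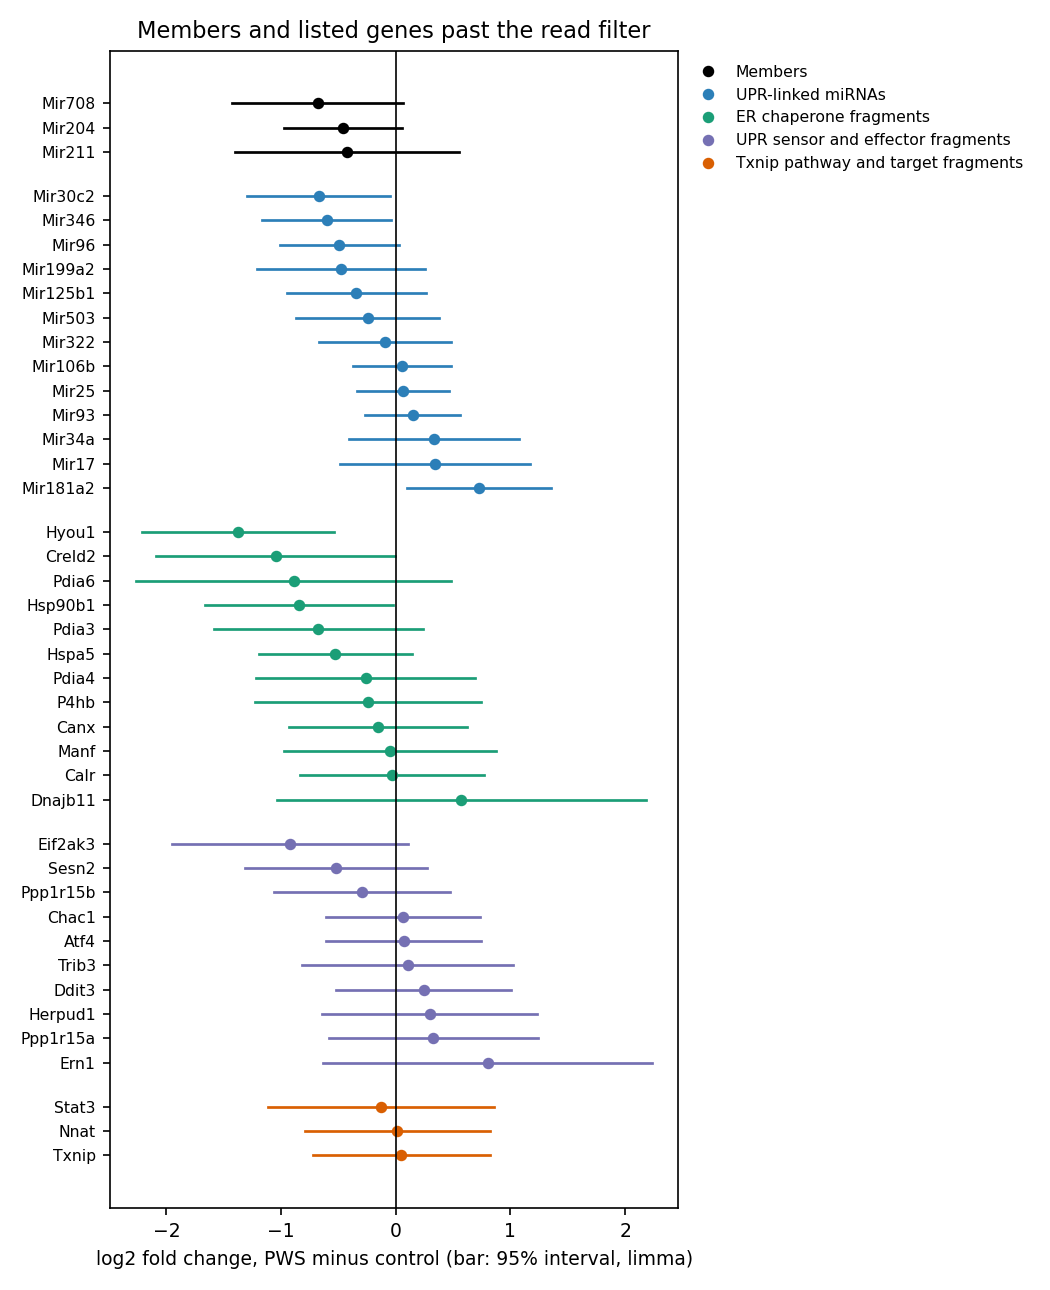
Log2 fold change, PWS minus control (horizontal axis), with 95% limma intervals, for the 3 member microRNA genes and for listed genes past the read filter. The intervals of the 3 members span 0, and 11 of 12 ER chaperone fragments lie to the left of 0, none of them called.

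The levels of the 3 microRNAs were also compared across the 6 lines. Pearson's r of log2 levels was -0.01 between Mir204 and Mir708, 0.22 between Mir204 and Mir211, and 0.14 between Mir708 and Mir211, and it was -0.13 between the seed relatives Mir708 and Mir28. Without line 19-4, an alternative chosen after seeing the data, these were 0.52, 0.48, 0.15 and -0.49 over 5 lines. All these values describe a few related clones that share size factors. Among the 172 other microRNA genes averaging 100 or more normalized reads, the pattern of Mir204 was most like Mir107 (r = 0.993), Mir383 (r = 0.991) and Mir125a (r = 0.988), all of which were lowest in line 19-4. Leaving out line 19-4 in the same way gave 0.947, 0.946 and 0.905. Mir708 was most like Mir148a (r = 0.815), Mir135b (r = 0.677) and Mir1306 (r = 0.660), and Mir211 was most like Mir345 (r = 0.877), Mir6318 (r = 0.829) and Mir101a (r = 0.750), over 6 lines in each case. Without line 19-4 these were 0.912, 0.735 and 0.765 for Mir708 and 0.877, 0.889 and 0.753 for Mir211. Each r was picked as among the highest of 172 over 6 lines, so high values can arise by chance. The pattern of Mir211 rests on 4 to 17 reads per line.

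**Figure D4:**
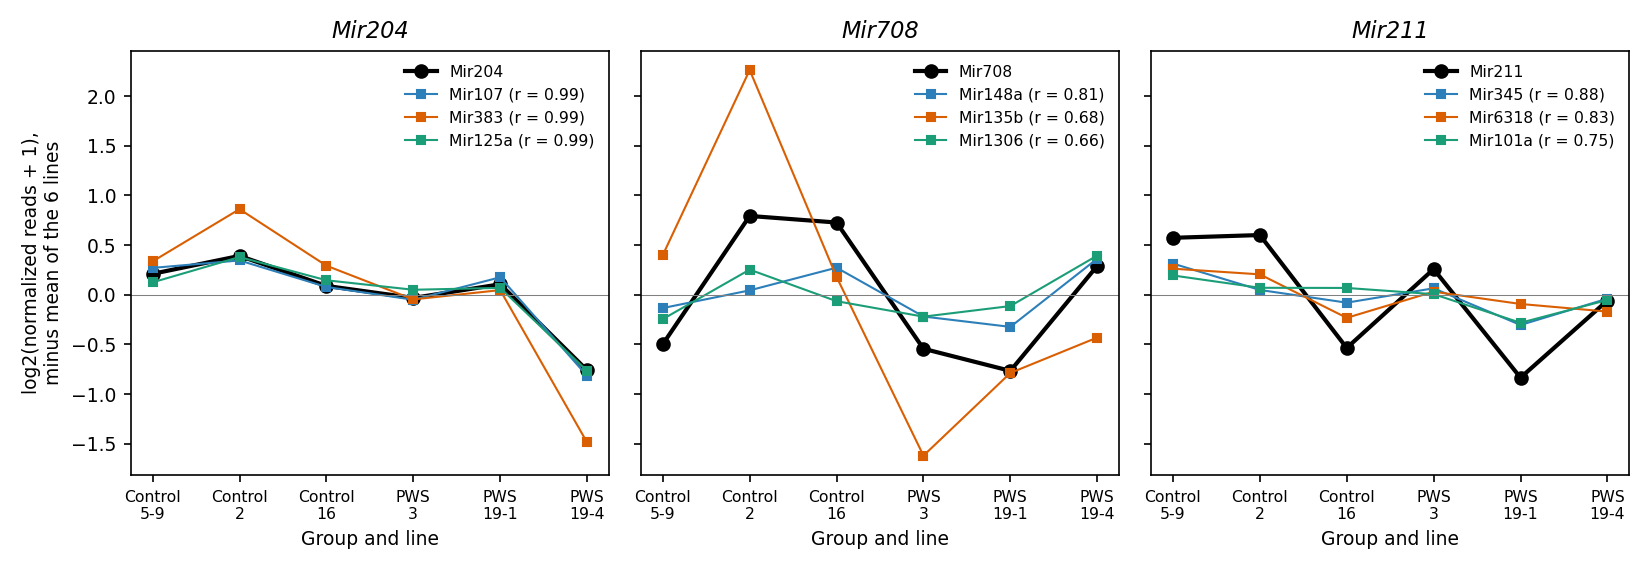
Log2(normalized reads + 1) minus the mean of the 6 lines (vertical axis) for each member microRNA (black) and the 3 microRNA genes most like it by Pearson's r (colours), in the 6 lines. Mir204 and its 3 most like genes drop together in PWS line 19-4, while Mir708 is high in lines 2, 16 and 19-4.

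**Figure D5:**
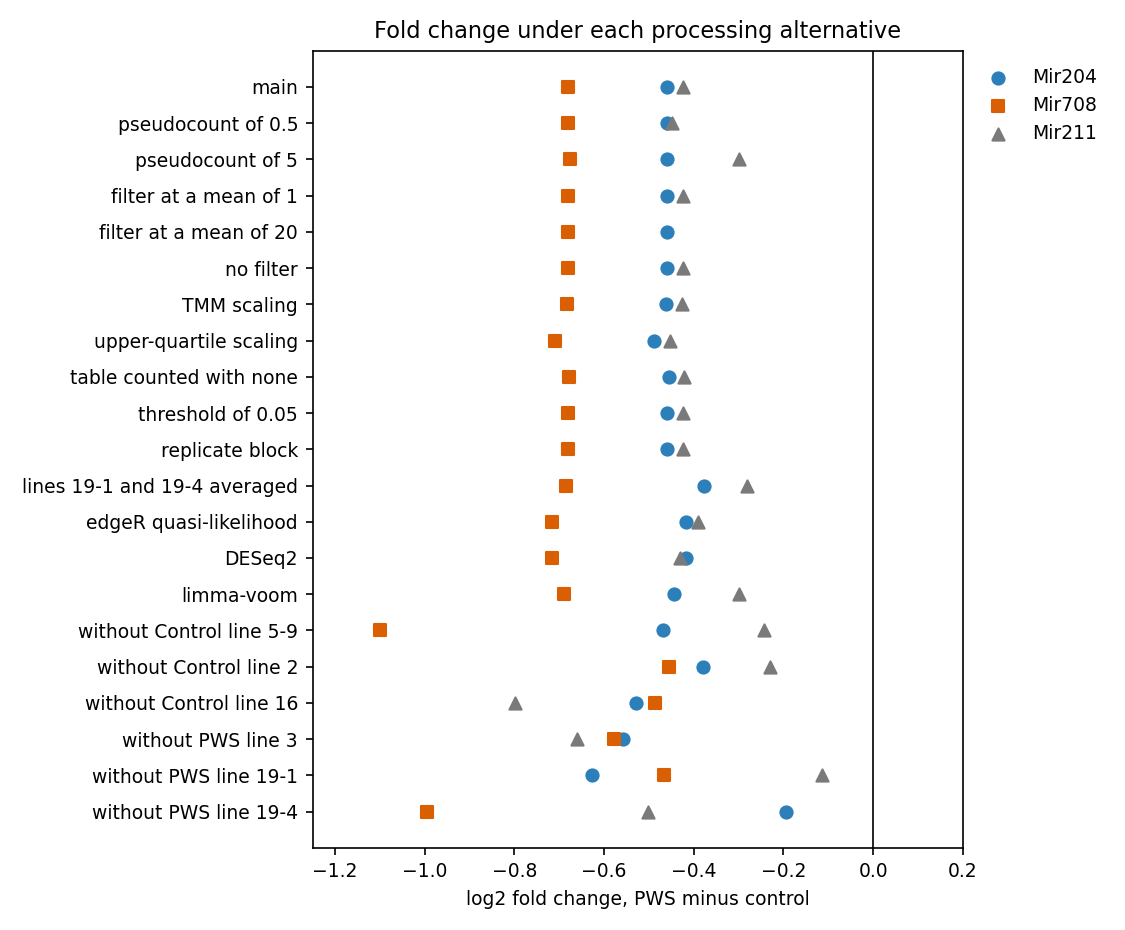
Log2 fold change, PWS minus control (horizontal axis), of Mir204, Mir708 and Mir211 under each processing alternative and with each line left out. All values lie below 0, and the widest shifts come from leaving out single lines: Mir211 runs from -0.80 to -0.11, Mir708 from -1.10 to -0.45 and Mir204 from -0.63 to -0.19.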

How the data were processed

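Small RNA libraries of 6 clonal INS-1 lines were analysed, 3 control and 3 PWS, grouped by the genotype in the labels. They were made with the QIAseq miRNA kit, which tags molecules with UMIs. Per the study, size selection was modified so that longer small RNAs such as snoRNAs were included. Per the labels, the submitters' processing notes name UMI-tools 1.0.0, cutadapt 1.18, Bowtie2 2.3.4.2, HTSeq 0.11.2, featureCounts, DESeq2 and build Rnor_6.0. The authors deposited signal values, gene counts divided by a DESeq2 size factor, in 2 tables that differ in whether reads of multicopy or overlapping genes were counted for every such gene (used here) or for none. The members' reads were the same in both. The 5 columns of the authors' own comparison (baseline mean, fold change, its error and p-values) were not used. Whole reads were recovered from the values: 100% of values above 0 were whole multiples of 1 read within 0.001. Summed gene counts were 7373691 to 16480475 reads per library, with shared reads counted more than once, and intervals and limits from reads cover counting error only. Overlapping genes may share reads.

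PWS lines were compared with control lines by limma-trend (limma 3.58.1, R 4.3.3) on log2(normalized reads + 1), a scale that understates changes of low genes, on the 4292 genes that averaged 5 or more normalized reads, with Benjamini-Hochberg adjustment and calls at an adjusted p under 0.1. Alternatives on the recovered reads were edgeR 4.0.16, limma-voom and DESeq2 1.42.0, and further alternatives were other pseudocounts, filters, scalings, the other table, a stricter threshold, a replicate block, averaging lines 19-1 and 19-4, and leaving out each line. The fits were run on simulated data with changes much larger than those of the members, so that check gives no measure of power for the members. Named genes were the members, their seed relatives, the 3 most abundant and any called gene of each list, and the 3 microRNA genes most like each member microRNA; others are marked in the text. The members and lists were chosen with earlier results of these data known. Sequences and gene order came from RefSeq (GRCr8), whose build differs from that of the files, so no other coordinates are given.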

Additional observations from a re-analysis of the deposited data

How the results depend on the processing

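Members called stayed at 0 under all 20 alternatives, and the log2 fold changes of Mir204, of Mir708 and of the summed Mir204 and Mir211 reads kept their direction in all 20 and that of Mir211 in all 19 that gave a value (none with the filter at a mean of 20). Mir204 ranged from -0.63 to -0.19, Mir708 from -1.10 to -0.45 and Mir211 from -0.80 to -0.11, each extreme from leaving out 1 line. Mir211 depended on single lines as well: -0.11 without line 19-1 and -0.80 without line 16. Genes called ranged from 41 to 66. The difference in the Mir211 share of the pair, 0.00385 percentage points, ranged from -0.0121 to 0.0241 when lines were left out; the cause was not tested. Leaving out lines gave -1.12 to 0.42 normalized reads for the Trpm3 difference and -0.53 to 1.57 for Tenm4.

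With the replicate number as a replicate block, 56 genes were called, and Mir204, Mir708 and Mir211 had adjusted p of 0.727, 0.691 and 0.881 (limma); the unadjusted p of Mir708 was 0.0281. Deviations from the group mean correlated at 0.414, 0.218 and -0.0574 between same-numbered lines over 1087 genes. Differently numbered lines were not compared, so whether the numbers pair the lines was not tested. Among listed genes near 0, leaving out lines gave ranges that cross 0: Mir25 -0.043 to 0.13, Mir106b -0.024 to 0.14, Calr -0.35 to 0.25, Chac1 -0.15 to 0.22, Atf4 -0.048 to 0.20, Txnip -0.24 to 0.41, Nnat -0.17 to 0.26 and Stat3 -0.60 to 0.19. Ranges that stayed on 1 side of 0 included Ddit3, 0.012 to 0.60, Mir93, 0.035 to 0.23, Mir28, 0.14 to 0.42, Mir30c2, -0.92 to -0.35, and Hsp90b1, -1.15 to -0.46. Among genes outside the naming rule, Eif2ak3 also moved with the tool, from -0.92 to -0.56 by limma-voom, and Ins2 from -2.03 to -1.02. A pseudocount of 5 gave -0.66 for Creld2, 0.80 for Chgb, -0.60 for Eif2ak3 and -1.22 for Ins2. Averaging lines 19-1 and 19-4 gave log2 fold changes of -0.38, -0.68 and -0.28 for Mir204, Mir708 and Mir211 (limma adjusted p = 0.997 for each). The same averaging gave 0.094 for Calr and -0.00078 for Chac1, edgeR and DESeq2 gave -0.018 and -0.024 for Txnip, and upper-quartile scaling gave -0.012 for Nnat. Depth limits Mir211, at 57 reads in all, and the host genes most.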
